A study of Homo sapiens with 6 samples.

Results

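The regions described here are stretches of DNA with high methylation in DNMT3B knockout M07e cells and low methylation in control M07e cells. They are the rows of the authors' deposited table of regions with at least 5 sites, a mean of at least 50% in the knockout and a mean under 20% in the control. The rule finds 1204 of 35130 regions, or 3.45% of the 34885 regions with at least 5 sites, and they cover 99.6 kilobases. They were chosen by both group means, so the difference between the groups in these regions is a description and carries no test.

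M07e is a growth factor-dependent human cell line from an acute megakaryoblastic leukemia. The knockout group is M07e cells in which DNMT3B was disrupted by CRISPR (3 libraries), and the control group is M07e cells with wild-type DNMT3B (3 libraries). Both were cultured with GM-CSF and measured by reduced representation bisulfite sequencing, in which MspI cuts DNA at CCGG and bisulfite conversion tells methylated from unmethylated cytosine. The labels do not say whether the libraries of a group came from separate cultures or clones, or whether the knockout is a single clone. The table's knockout column is headed M07e_3883, a name that no label uses. It was read as the knockout because that is the only genotype besides the control, and every direction below rests on that reading. The table gives 1 mean per group and region. Levels of single libraries, reads and coverage were not analysed here, so depth and the spread between libraries are unknown. RNA was not analysed here, so the labelled cell type was not checked against marker expression and no methylation value below is tied to expression.

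DNA methylation in mammals sits mostly on cytosines of CpG dinucleotides. DNMT3B and its relative DNMT3A add methyl groups to unmethylated DNA, and DNMT1, brought to new DNA by UHRF1, copies existing patterns after replication. CpG-rich promoters are usually unmethylated in normal cells, and many such promoters of developmental genes become methylated in leukemias and other cancers.

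Reduced representation libraries read short CpG-dense stretches, and the promoters below show what such a stretch looks like. Each is the RefSeq window of 250 bases before to 50 after a gene start on GRCh38.p14, printed on the gene's strand, with the part that was measured as a region with high knockout and low control methylation in capitals. They are shown because they are among the 8 promoter windows of protein-coding genes whose overlapping region had the most sites. Windows on the minus strand are TYMP (chr22:50529963-50530262), RGS7 (chr1:241357156-241357455), GABBR2 (chr9:98708886-98709185) and MAP7D2 (chrX:20116858-20117157). Windows on the plus strand are GNMT (chr6:42960504-42960803) and TF (chr3:133746143-133746442).
TYMP: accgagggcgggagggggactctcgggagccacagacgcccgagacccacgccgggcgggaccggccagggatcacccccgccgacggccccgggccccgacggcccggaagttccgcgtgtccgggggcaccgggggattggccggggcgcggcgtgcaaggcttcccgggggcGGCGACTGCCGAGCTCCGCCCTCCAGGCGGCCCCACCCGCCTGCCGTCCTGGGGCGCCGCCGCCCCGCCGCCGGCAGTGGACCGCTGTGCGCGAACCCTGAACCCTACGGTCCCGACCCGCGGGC
RGS7: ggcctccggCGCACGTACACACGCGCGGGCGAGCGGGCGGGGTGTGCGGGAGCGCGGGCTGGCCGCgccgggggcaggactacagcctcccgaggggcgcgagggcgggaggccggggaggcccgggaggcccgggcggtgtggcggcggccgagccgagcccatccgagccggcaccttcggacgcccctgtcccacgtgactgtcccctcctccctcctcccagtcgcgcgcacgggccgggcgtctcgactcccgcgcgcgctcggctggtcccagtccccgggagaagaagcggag
GABBR2: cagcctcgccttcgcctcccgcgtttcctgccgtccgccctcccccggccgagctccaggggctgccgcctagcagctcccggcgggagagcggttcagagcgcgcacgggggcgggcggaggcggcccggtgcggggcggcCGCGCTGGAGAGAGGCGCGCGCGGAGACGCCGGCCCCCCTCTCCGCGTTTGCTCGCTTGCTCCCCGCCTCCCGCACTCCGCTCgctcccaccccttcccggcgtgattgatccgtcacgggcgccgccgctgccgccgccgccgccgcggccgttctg
GNMT: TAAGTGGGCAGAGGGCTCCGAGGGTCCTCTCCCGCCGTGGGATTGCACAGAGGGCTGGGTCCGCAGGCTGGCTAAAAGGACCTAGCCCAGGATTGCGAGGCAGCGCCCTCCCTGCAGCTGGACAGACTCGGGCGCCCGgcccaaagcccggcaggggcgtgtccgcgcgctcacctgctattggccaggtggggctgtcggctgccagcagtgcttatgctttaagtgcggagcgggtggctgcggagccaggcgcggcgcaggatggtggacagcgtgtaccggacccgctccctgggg
TF: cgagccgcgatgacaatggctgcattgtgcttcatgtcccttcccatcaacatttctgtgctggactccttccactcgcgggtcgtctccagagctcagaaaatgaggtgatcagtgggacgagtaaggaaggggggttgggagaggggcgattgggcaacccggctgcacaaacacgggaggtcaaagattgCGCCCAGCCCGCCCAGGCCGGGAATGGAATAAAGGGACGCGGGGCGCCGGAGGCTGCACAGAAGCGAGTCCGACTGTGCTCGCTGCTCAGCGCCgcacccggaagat
MAP7D2: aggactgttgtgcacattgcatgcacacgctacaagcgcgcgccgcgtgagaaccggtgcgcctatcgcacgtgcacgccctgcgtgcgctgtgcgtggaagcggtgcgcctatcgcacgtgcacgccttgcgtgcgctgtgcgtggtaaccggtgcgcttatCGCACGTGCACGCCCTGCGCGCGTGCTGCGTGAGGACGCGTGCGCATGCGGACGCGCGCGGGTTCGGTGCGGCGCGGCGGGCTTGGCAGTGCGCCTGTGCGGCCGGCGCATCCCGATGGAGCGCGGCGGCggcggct
The measured stretch of the RGS7 window is 57 bases long and holds 12 CG dinucleotides, against 46 in the whole window. The MAP7D2 window holds 54 CG dinucleotides and 3 CCGG motifs, and the TF window holds 23 and 4.

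A site in the deposited table is a cytosine of either strand. Among 2480 regions of the table that lie wholly inside a promoter window, all 2480 start and end on a CG position, and 1890 (76.2%) list more sites than the CG dinucleotides they contain. None lists more than the CG positions of both strands, and 1400 list exactly that number. The 24 sites at RGS7 match the 12 CG dinucleotides in capitals, read on both strands. The minimum of 5 sites can therefore be reached by fewer than 5 CpG dinucleotides.

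These regions also lay within 1000 bases of 11 microRNA hairpins annotated by RefSeq. How many hairpins lie that close to any measured region was not counted. The number 11 therefore has no background and is not read as a trait of these regions. MicroRNAs pair with messenger RNAs mainly through the seed, bases 2 to 8 from the 5′ end, which is in capitals below. The genes of miR-193a and miR-193b, on chromosomes 17 and 16, both had such a region, and their 3p arms share the seed ACUGGCC. They are shown with miR-203a, chosen after its values were seen.
hsa-miR-193a-3p: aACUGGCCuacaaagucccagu
hsa-miR-193b-3p: aACUGGCCcucaaagucccgcu
hsa-miR-203a-3p: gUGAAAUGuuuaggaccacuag
MIR193A had 50.1% in the knockout and 17.4% in the control over 24 sites, 63 bases from the hairpin. MIR193B had 51.3% in the knockout and 10.7% in the control over 5 sites, 36 bases from the hairpin. MIR203A had 69.9% in the knockout and 12.8% in the control over 13 sites, 630 bases away, and the same region lies 643 bases from MIR203B. The region near MIR6720 is also a region of FOXF2, a forkhead gene named for that reason, with 51.4% in the knockout and 11.5% in the control over 16 sites.

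The 1204 regions are called gaining regions below. Across them the median level was 58.9% in the knockout (quartiles 52.9 and 65.6) and 12.2% in the control (quartiles 0 and 16.3). The median difference was 50 percentage points. In all regions with at least 5 sites the medians were 31.0% in the knockout and 7.5% in the control. Among the 1204, the knockout level lay between 50% and 60% in 647 regions, between 60% and 70% in 371, between 70% and 80% in 105, between 80% and 90% in 56 and at 90% or above in 25. In the control, 314 regions (26.1%) were listed with a mean of exactly 0, and 395 had a mean between 15% and 20%. The table does not say whether a library without reads at a region was left out of the mean or counted as 0. A level of 0% below is therefore a listed value and does not show that the DNA was unmethylated, and any other mean has the same limit.

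Knockout levels of the gaining regions thinned out near 66.7%, the mean of 3 libraries when 2 are fully methylated and 1 is unmethylated. There were 118 regions with a knockout mean between 65% and 67.5%, and 33 between 67.5% and 70%. A narrower window did not show a step: 39 regions lay within 1 point below 66.7% and 35 within 1 point above. These counts include 20 regions within 0.05 points of that level. Of the 1204 regions, 971 (80.6%) had a knockout mean at or under 66.7%, and 233 lay above it. A step stood at 33.3% over the whole table. There 4521 regions with at least 5 sites had a knockout mean within 1 point below that level and 203 within 1 point above it. The corresponding control counts at 33.3% were 826 and 164. Whether single libraries, or libraries without reads entered as 0, account for these counts was not tested, because the table has no values of single libraries. A group mean also does not tell partial methylation in every library from full methylation in some. If the means are plain means over 3 libraries, a level of 50% needs methylation in at least 2 of them.

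**Figure D1:**
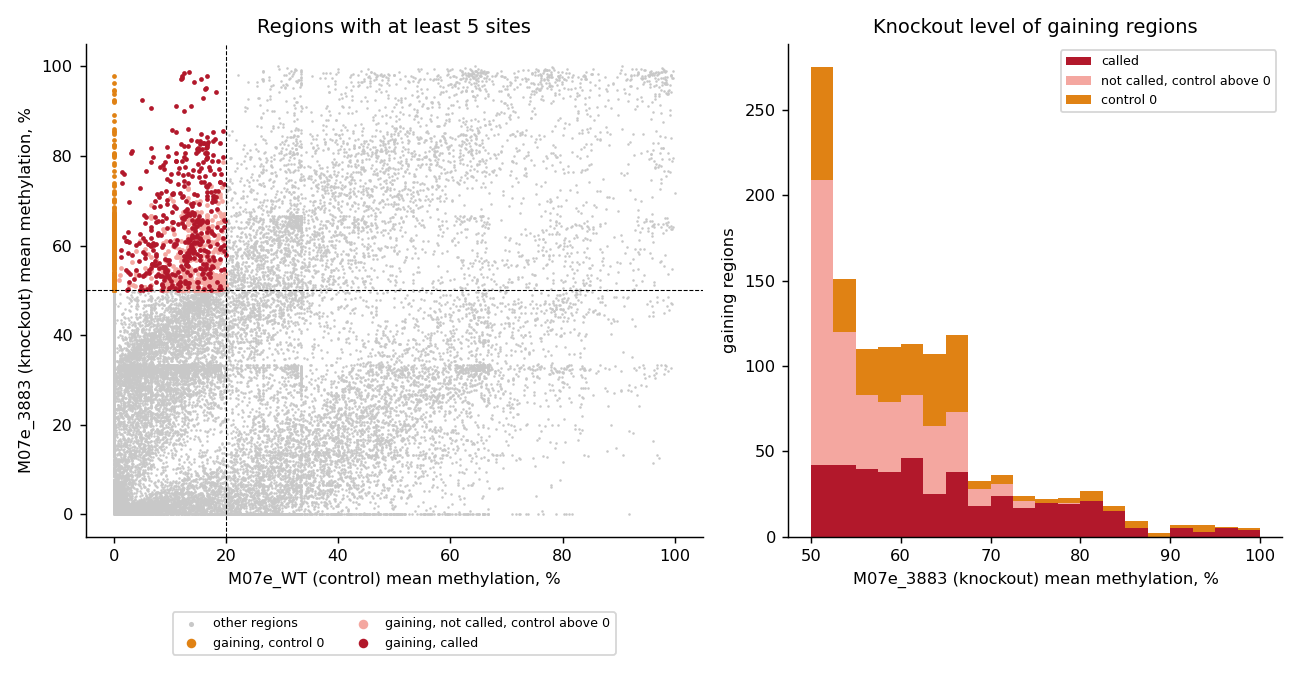
Left, mean methylation in percent in the knockout (vertical axis) and the control (horizontal axis) for each of the 34885 regions with at least 5 sites, with the gaining regions coloured and dashed lines at 50% and 20%; called means a deposited q under 0.01 and a difference of at least 25 points. Right, the knockout level of the 1204 gaining regions in stacked bars by the same classes: 971 lie at or under 66.7%, and no region with a control mean of 0 was called.

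In the authors' deposited table, 427 of the 1204 regions (35.5%) had a q under 0.01 with a difference of at least 25 points. Over all 35130 regions the share was 6.74%, and 4.57% counting only regions higher in the knockout. The rule used the same contrast, so the comparison of these shares carries no information about the regions. The calls split on the control level. None of the 314 regions with a control mean of 0 was called, against 427 of 890 (48.0%) with a control mean above 0. In the authors' deposited table all 314 carry a Kolmogorov-Smirnov p of 1 and a q of 1, whereas their Mann-Whitney p was at most 0.0121, with a median of 6.33e-04. This holds across the table: of 9175 regions with a control mean of 0, 9132 have a Kolmogorov-Smirnov p of 1 in the authors' deposited table and 0 were called. Of 24323 regions with both means above 0, 121 have such a p. The sources used here do not say how the authors handled means of 0 in that test. The table also does not say whether sites or libraries were the observations of its tests. A region of 5 sites at each of DLGAP2, ACVR1B and SHH has the same Mann-Whitney p, 0.0121, although their levels differ. The deposited p and q, here and below, are therefore not read as measures of the spread between libraries.

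The regions listed at 0 in the control include many of the largest differences. A control mean of 0 gives a larger difference by construction, and these differences rest on the 0 being a measured level, which the table does not show. Such regions make up 28 of the 50 with the largest difference, and 8 of the 25 with a knockout level of at least 90%. A region at the gene boundary of ITGA6, an integrin subunit of laminin receptors, had 92.2% in the knockout and 0% in the control over 11 sites (chr2:172465640-172465687). ELANE, the gene of neutrophil elastase, had 82.5% in the knockout and 0% in the control over 9 sites (chr19:855783-855829). Neither was called, with a q of 1 for both in the authors' deposited table. A further 3 regions of this kind are named after their values were seen. TENM3, a teneurin of neuronal wiring, had 97.8% in the knockout and 0% in the control over 8 sites. APOE, the apolipoprotein E gene, had 96.3% in the knockout and 0% in the control over 5 sites. RASSF10, a RAS-association domain gene, had 80.2% in the knockout and 0% in the control over 22 sites.

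The regions were short and CpG-dense, as the assay selects. They had a median of 7 sites (quartiles 5 and 10, highest 54) over 55 bases (quartiles 34 and 100), or 13.6 sites per 100 bases. All regions with at least 5 sites had medians of 6 sites, 58 bases and 12.6 sites per 100 bases. Among those assigned to protein-coding genes, the densest were at RALYL, an RNA-binding protein gene, FOXA1 and TMEM158. The sparsest of these were near LARP1, 32065 bases away, and at JPT2, whose region has 1.54 sites per 100 bases and also overlaps LOC128966723.

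A smaller share of the gaining regions than of the whole table lay at gene ends. Of the 1204 regions, 35.4% lay within 1000 bases of either end of a RefSeq gene (95% exact binomial interval 32.7 to 38.2), 45.5% lay elsewhere inside a gene (42.7 to 48.4) and 19.1% lay outside genes (16.9 to 21.4). Over all regions with at least 5 sites the shares were 42.0%, 41.8% and 16.2%. Among regions with at least 10 sites the gap at gene ends was smaller, with 45.5% of 330 gaining regions and 47.0% of 7867 regions in all. In the 495 mirrored losses, which had under 20% in the knockout and at least 50% in the control, they were 41.6%, 38.2% and 20.2%. Intervals describe counting over regions of the table, not the spread between libraries. Among the classes of gaining regions, 48.5% of the 427 called ones lay at a gene end, against 29.3% of those with a control mean of 0 and 27.4% of the other uncalled ones. The called ones also had more sites, with a median of 9, against 6 in each of the other classes. Call and number of sites thus went together, and their separate parts in the share at gene ends were not tested.

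**Figure D2:**
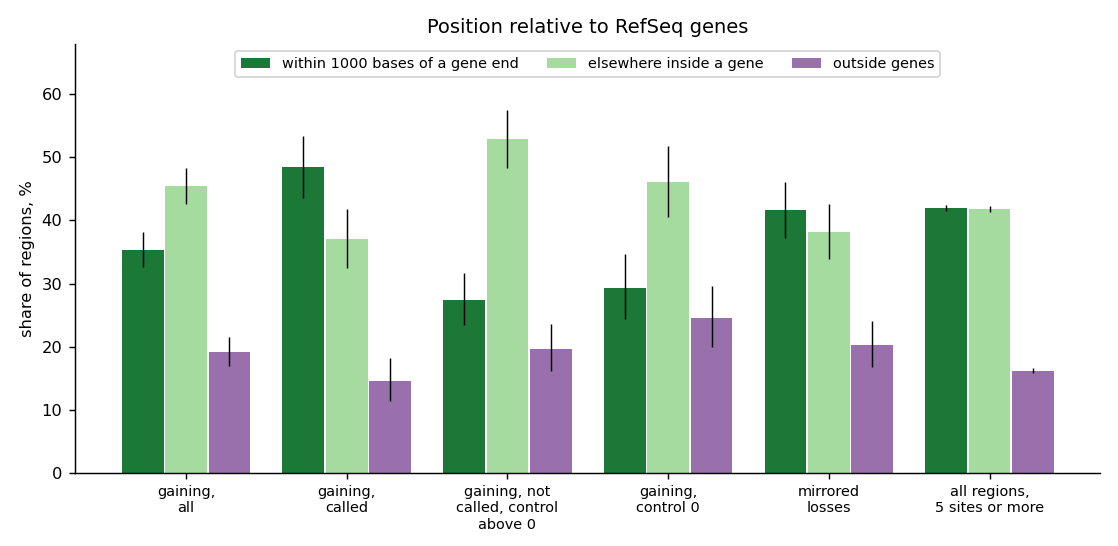
Share of regions in percent (vertical axis) within 1000 bases of a RefSeq gene end, elsewhere inside a gene, or outside genes, for the gaining regions and their 3 classes, the mirrored losses and all regions with at least 5 sites; error bars are exact 95% binomial intervals over regions. Gaining regions lie at a gene end in 35.4% of cases and all regions in 42.0%, while the called gaining regions reach 48.5%.

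Transcription starts showed the same order. Outside chromosome 8, for which promoter windows were not used here, 281 of 1140 gaining regions (24.6%) lay within 1000 bases of a RefSeq start, against 31.4% of all regions with at least 5 sites. The classes differed here too. The share was 39.1% of the called ones, above that of all regions, 17.1% of those with a control mean of 0 and 16.7% of the other uncalled ones. A promoter window was overlapped by 71 of the 1140 (6.23%), against 11.0% of the mirrored losses and 11.3% of all regions. These windows belong to 72 genes, of which 43 are protein-coding and 29 are long noncoding RNA genes. The 75 windows with a gaining region had a median of 32 CG dinucleotides, a GC content of 70.3% and an observed-to-expected CG ratio of 0.863. The 4157 windows with any measured region had 30, 69.3% and 0.855, and all 35116 windows in the table had 14, 58.7% and 0.579. The motif CCGG, which reads the same on both strands, was found in all 75, in 4156 of the 4157 and in 63.1% of all windows. In sequence composition the promoters with a gaining region thus resembled the other promoters that the assay measured. The base after CG was C at 45.8% of CG positions in the gaining regions inside windows and G at 36.1%, against 42.1% and 36.4% in other regions there.

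The region with the most sites covered the start of TYMP, the gene of thymidine phosphorylase, an enzyme of pyrimidine salvage. Over 54 sites in 309 bases it had 50% in the knockout and 11.4% in the control (chr22:50529779-50530087), with a q of 2.53e-08 in the authors' deposited table. RGS7, a regulator of G-protein signalling, had 65.5% in the knockout and 14.7% in the control over 24 sites, 160 bases from the annotated gene. GABBR2, a subunit of the GABA-B receptor, had 60.6% in the knockout and 7.02% in the control over 19 sites. These promoters had intermediate levels in the knockout and low, non-zero levels in the control.

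At the promoter of GNMT, the glycine N-methyltransferase that consumes S-adenosylmethionine, the level was 50.1% in the knockout and 5.26% in the control over 19 sites. ARPP21, a cAMP-regulated phosphoprotein gene, had 50.1% in the knockout and 17.3% in the control over 24 sites. CIMAP2 had 61.5% in the knockout and 15.4% in the control over 17 sites. The promoters of TF, the transferrin gene, and of MAP7D2, a microtubule-associated protein gene on the X chromosome, had a control mean of 0. TF had 56.4% in the knockout and 0% in the control over 19 sites, and MAP7D2 had 63.7% in the knockout and 0% in the control over 18 sites. Both carry a q of 1 in the authors' deposited table.

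Other regions with many sites lay inside or near genes of varied function. A region inside ANO1, a calcium-activated chloride channel, had 62.8% in the knockout and 8.0% in the control over 30 sites (chr11:70078690-70078847; q of 2.15e-10 in the authors' deposited table). A region in ADD2, a subunit of the membrane skeleton protein adducin, had 52.0% in the knockout and 12.7% in the control over 32 sites. MAPK8IP2, a scaffold of JNK signalling, had 58.0% in the knockout and 20.0% in the control over 37 sites, just under the control limit of the rule.

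FZD6, a WNT receptor, had 51.9% in the knockout and 18.4% in the control over 37 sites. GCAT, a threonine catabolism enzyme, had a region 1644 bases away with 55.4% in the knockout and 17.6% in the control over 32 sites. The region near NUP42, a nuclear pore component, lay 5247 bases outside the gene and had 55.1% in the knockout and 15.4% in the control over 39 sites. IL17REL had a region 2047 bases away with 57.7% in the knockout and 12.5% in the control over 28 sites. These regions sit in the lower part of the knockout range, and each had a control mean above 0.

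**Figure D3:**
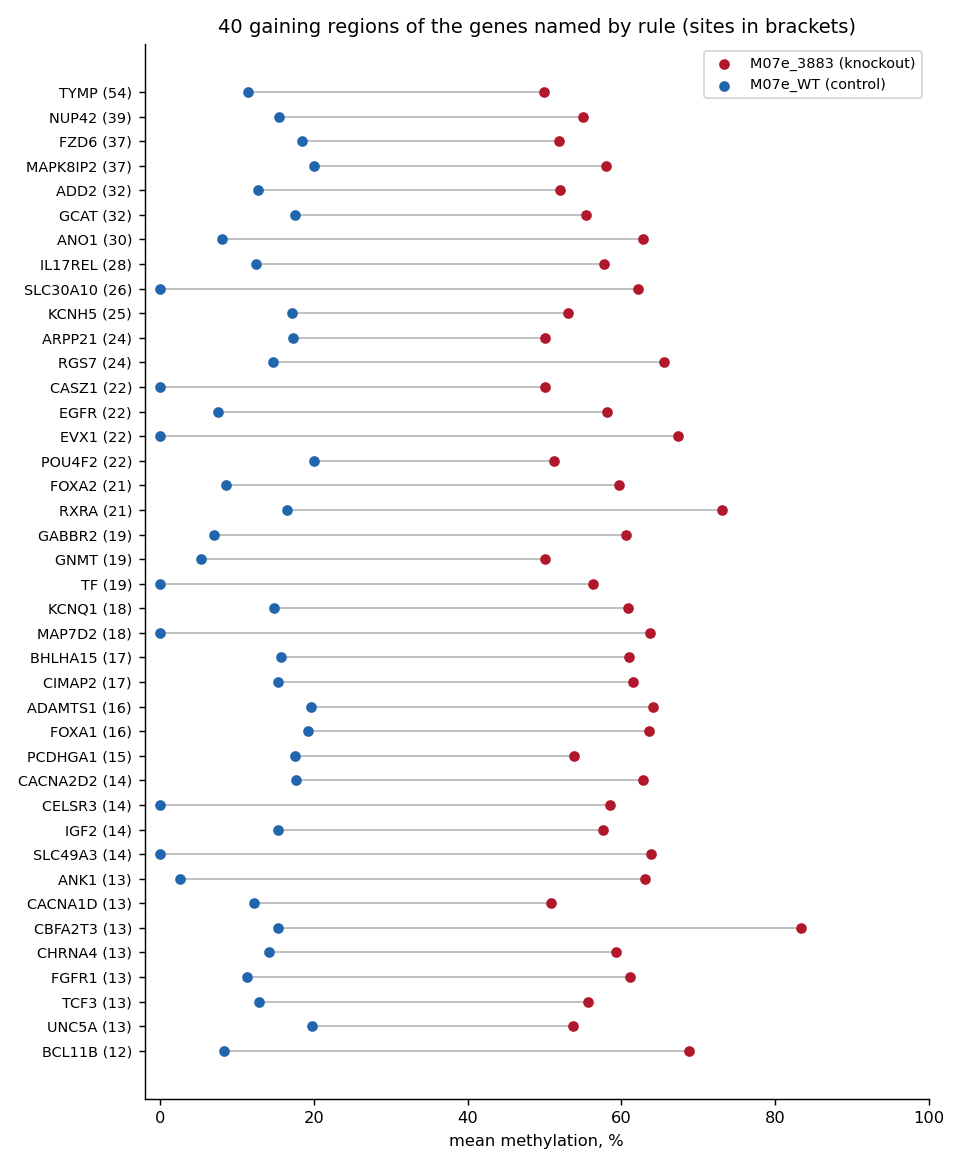
Mean methylation in percent (horizontal axis) in the knockout and the control for 40 gaining regions, those with the most sites among the genes that the naming rule takes by number of sites, by promoter or by gene list, 1 row per gene, with the number of sites in brackets; a line joins the 2 means of a region. TYMP, with the most sites, has 50% in the knockout and 11.4% in the control, and 7 of the rows, SLC30A10, CASZ1, EVX1, TF, MAP7D2, CELSR3 and SLC49A3, have a control mean of 0.

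Each region was given to all RefSeq genes it overlaps or, lacking any, to the closest gene up to 50000 bases away. In this way 1181 of the 1204 regions were assigned to 1243 genes. Of 11388 measured protein-coding genes, 882 (7.74%) held a gaining region, 380 a mirrored loss and 70 both. The gene lists below are described by counts beside the background of 7.74% of genes and 3.37% of regions (907 of 26928), and the lists were not tested. Of 34 lists, 28 had a higher share of genes and 22 a higher share of regions. A gene with more measured regions has more chances to hold a gaining one, so both shares are given.

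Forkhead factors, which open and regulate chromatin in development, had gaining regions in 10 of 43 measured genes, and 12 of their 145 regions (8.28%) were gaining, with 3 mirrored losses. FOXA1, a pioneer factor of endoderm, had 3 of them among its 8 regions and no mirrored loss. These 3 had 63.5%, 66.9% and 72.1% in the knockout and 19.2%, 8.89% and 9.33% in the control, over 16, 5 and 5 sites. The other FOXA1 regions went both ways. For example, 1 had 44.7% in the knockout and 13.3% in the control. Another had 20.0% in the knockout and 53.3% in the control, just outside the limit of a mirrored loss. FOXA2 had 59.6% in the knockout and 8.57% in the control over 21 sites (chr20:22585350-22585423). The highest knockout levels of the family were at FOXL2, an ovarian regulator, with 83.2% in the knockout and 14.8% in the control, and at FOXC2, a regulator of lymphatic vessels, with 82.7% in the knockout and 15.4% in the control. FOXL2 and FOXC2 were named after their values were seen.

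Homeobox genes, the body-plan regulators, were mixed. In the HOX clusters 6 of 113 regions (5.31%) were gaining and 6 were mirrored losses. HOXA3 had 55.0% in the knockout and 0% in the control over 10 sites, and HOXB6 had 53.9% in the knockout and 19.8% in the control over 10 sites. In the other homeobox genes 28 of 802 regions (3.49%) were gaining, close to the background, although 26 of 142 genes held one. Counting overlapped genes only, these were 16 of 517 regions (3.09%, against 3.35% of all) and 15 of 137 genes. EVX1, next to the HOXA cluster, had a region 3767 bases away with 67.4% in the knockout and 0% in the control over 22 sites. POU4F2, a retinal neuron factor, had 51.2% in the knockout and 20.0% in the control over 22 sites, 5519 bases away.

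SOX and T-box factors had 7 gaining regions of 117 (5.98%) and 1 mirrored loss. SOX7, an endothelial factor, had 61.1% in the knockout and 5.56% in the control over 12 sites. The nuclear receptors had 7 of 133 (5.26%), among them RXRA, the common partner of many nuclear receptors, with 73.1% in the knockout and 16.6% in the control over 21 sites. The basic helix-loop-helix factors had 3 of 184 (1.63%) and the ZNF genes 21 of 625 (3.36%). BHLHA15, a secretory cell factor, had 61.0% in the knockout and 15.7% in the control over 17 sites. Transcription factor families thus lay on both sides of the background of 3.37%.

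Axon guidance genes, whose ligands and receptors steer growing axons, had gaining regions in 16 of 66 measured genes and in 16 of 224 regions (7.14%), with 3 mirrored losses. Among the ligands, EFNA1, an ephrin, had 71.1% in the knockout and 16.7% in the control over 7 sites, 995 bases from the gene. SLIT1 and SLIT3, which encode secreted repellents and were named after their values were seen, had 79.0% and 77.2% in the knockout and 18.7% and 8.95% in the control, over 5 sites each. Among the receptors, UNC5A, a netrin receptor, had 53.7% in the knockout and 19.8% in the control over 13 sites, 11717 bases away. Apart from UNC5A, the gaining regions of these genes have 5 to 7 sites.

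Receptor kinases and their ligands had 11 of 211 regions (5.21%). EGFR, the epidermal growth factor receptor, had 58.1% in the knockout and 7.58% in the control over 22 sites at its gene boundary (chr7:55019507-55019586). FGFR1, a fibroblast growth factor receptor, had 61.2% in the knockout and 11.3% in the control over 13 sites. Potassium channel genes had 11 of 285 regions (3.86%) and neurotransmitter receptor genes 11 of 246 (4.47%). KCNH5 had 53.0% in the knockout and 17.2% in the control over 25 sites. The WNT pathway had 5 of 200 regions (2.5%) and the BMP and TGF-beta pathway 2 of 147 (1.36%). The 22 clustered protocadherin genes with a gaining region share 2 regions, because their annotated spans overlap.

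**Figure D4:**
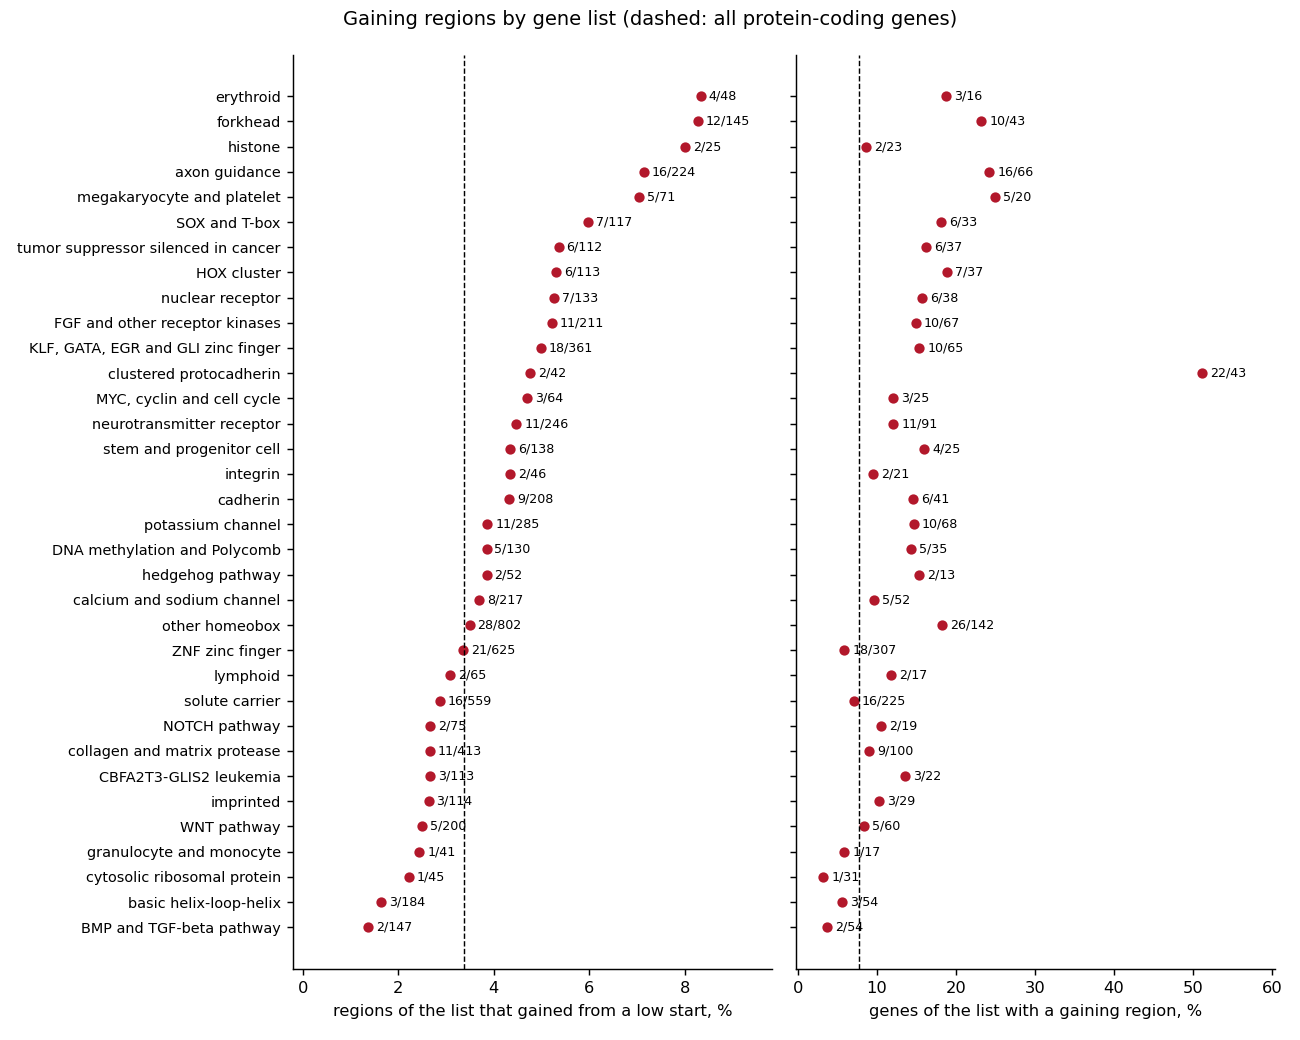
Share in percent of a gene list's regions that were gaining (left) and of its measured genes that held a gaining region (right), 1 row per list, with the counts beside each point and a dashed line at the value of all protein-coding genes, 3.37% of regions and 7.74% of genes. Forkhead genes have 12 of 145 regions and the BMP and TGF-beta pathway 2 of 147; lists with few regions, such as the erythroid list with 4 of 48, rest on small counts.

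Blood cell genes rested on few regions. The megakaryocyte and platelet list, the lineage of M07e, had 5 gaining regions of 71 (7.04%) in 5 of 20 genes and no mirrored loss. VWF, the gene of von Willebrand factor, had 56.2% in the knockout and 18.2% in the control over 10 sites. That region was not called, with a q of 0.0425 in the authors' deposited table. GP9, a subunit of the platelet receptor for von Willebrand factor that was named after its values were seen, had 67.8% in the knockout and 17.3% in the control over 5 sites. The erythroid list had 4 of 48 regions, with ANK1, the red cell ankyrin, at 63.1% in the knockout and 2.56% in the control over 13 sites. The granulocyte and monocyte list had 1 of 41 regions (2.44%) and 1 mirrored loss. In the lymphoid list, 2 of 65 regions were gaining, and the region near BCL11B, a T-cell factor, had 68.8% in the knockout and 8.33% in the control over 12 sites. The CBFA2T3-GLIS2 leukemia list had 3 gaining regions of 113 (2.65%) and 2 mirrored losses. CBFA2T3, a corepressor gene fused to GLIS2 in some megakaryoblastic leukemias, had 83.4% in the knockout and 15.4% in the control over 13 sites inside the gene (chr16:88941221-88941253).

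Genes of the DNA methylation and Polycomb machinery had 5 gaining regions of 130 (3.85%) and no mirrored loss, or 3 of 101 (2.97%) counting overlapped genes only. UHRF1, the partner of DNMT1, had 50.3% in the knockout and 14.6% in the control over 8 sites. DNMT3A, the other de novo methyltransferase, had 54.8% in the knockout and 13.7% in the control over 6 sites. Both regions lie inside the genes, and neither was called, with a q of 0.0245 for UHRF1 and 0.0727 for DNMT3A in the authors' deposited table. The tumor suppressor list had 6 of 112 regions (5.36%) and the imprinted gene list 3 of 114 (2.63%). The imprinted list also held 1 mirrored loss, at IGF2, an imprinted growth factor gene. The gaining region of IGF2 had 57.6% in the knockout and 15.4% in the control over 14 sites, and the loss had 0% in the knockout and 50% in the control over 8 sites.

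Most genes with a gaining region held 1, while 70 protein-coding genes held 2 and 10 held 3 or more. INPP5A, an inositol phosphate phosphatase gene, held 5 among 32 measured regions and no mirrored loss. Its gaining regions had 50% to 65.9% in the knockout and 0% to 16.1% in the control, and 3 of the 5 had a control mean of 0. DLGAP2, a postsynaptic scaffold gene, held 4, and CACNA1H, CASZ1, CELSR1, FOXA1, GATA4, PRDM16, PTPRN2 and SH3TC1 held 3 each. A gene with more measured regions has more chances to hold several, and the background is 3.37% of regions. CASZ1 had 33 measured regions and FOXA1 had 8. No gaining region of GATA4 or SH3TC1 was called, and at INPP5A only the one with 12 sites was. PTPRN2 held 3 among 78 regions together with 5 mirrored losses, and PRDM16 held 3 among 69 together with 2. NKX2-2, a neural homeobox factor named after its values were seen, held 1 among 13 together with 3.

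Gaining and losing regions could lie side by side. In 10 places a gaining region lay within 1000 bases of a mirrored loss. Of the 464 other regions within 1000 bases of a gaining one, 2.16% were mirrored losses, against 1.47% of all regions outside the gaining set. The 3 closest pairs are described, and were named after their values were seen. At CNTFR, the receptor of ciliary neurotrophic factor, a region of 8 sites had 50.2% in the knockout and 6.52% in the control (chr9:34578178-34578188). At a distance of 18 bases, a region of 12 sites had 7.62% in the knockout and 79.5% in the control. At NEMP2 the neighbours were 14 bases apart: 59.9% in the knockout and 17.2% in the control, beside 19.7% in the knockout and 54.9% in the control. At COL6A1, a collagen VI chain gene, they were 56 bases apart, with 64.2% in the knockout and 18.5% in the control beside 19.2% in the knockout and 66.7% in the control. Within RXRA, another region had 18.8% in the knockout and 83.5% in the control.

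The neighbours of the gaining regions had about the same median difference as all regions outside the gaining set. A region with at least 5 sites from outside the gaining set lay within 1000 bases of 358 of the 1204 (29.7%). The 464 such neighbours had a median difference of 16.7 points (quartiles -10.2 and 30.9), and 67.0% were higher in the knockout. All regions outside the gaining set had a median difference of 15.8 points, and 67.4% were higher. Of the neighbours, 13.6% had means under 20% in both groups, against 23.6% of all regions outside the gaining set. The median control level was 16.1% in the neighbours and 7.07% in that set. Of the neighbours, 36.4% were higher and 14.2% lower in the knockout by at least 25 points, against 39.5% and 11.1%. Neighbours share their libraries with the gaining regions. Of 1181 pairs of successive gaining regions on a chromosome, 6 (0.508%) lay within 1000 bases, with a median gap of 761245 bases. Among successive regions with at least 5 sites, which are far more numerous, the share was 18.1% and the median gap 14245 bases. By chromosome their share of measured regions ran between 2.46% on chromosome 17 and 4.75% on chromosome 8, leaving aside Y and the mitochondrial genome with under 10 regions each and no gaining region.

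Regions lay close to the limits of the rule on both sides. Just inside it, EPRS1 had 50% in the knockout and 0% in the control, and ITGB1BP1 had 50% in the knockout and 16.7% in the control. LOC105373989, EEF1AKMT4-ECE2 and GATB also had 50% in the knockout, with 2.38%, 15.1% and 12.2% in the control. Just outside it were SKI, KCNAB2, CPLANE2, MAN1C1 and SLC6A9, with 51.8%, 53.3%, 52.6%, 53.3% and 50.6% in the knockout and a control mean of 20.0% in each.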

How the data were processed

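DNA from 6 libraries of M07e cells, 3 of the DNMT3B knockout and 3 of the control, was measured by reduced representation bisulfite sequencing. Bismark, methylKit, HISAT2, Trimmomatic, FastQC and the build hg38 stand in the submitters' processing notes, without roles or order; the sources used here do not name the region caller. Per the file headers, the authors deposited for each region a mean methylation level in percent for each group, the difference of the means as a score in percentage points, and the count of sites. The authors also deposited a Mann-Whitney p-value, a 2-dimensional Kolmogorov-Smirnov p-value and a q-value. The file's starts and ends were moved by the fixed offsets that put regions inside RefSeq promoter windows on CG positions, and are printed 1-based.

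Regions were chosen by the 3 limits given in the report. The regions and the gene lists were chosen with earlier results of these data known. Python 3.11.15 and pandas 2.3.3 were used, and the steps were tested on simulated data. No test was run, since there is 1 mean per group. Shares have exact (Clopper-Pearson) 95% intervals, which cover counting over regions only. Depth is unknown. RefSeq (GRCh38.p14) supplied genes, promoters and microRNAs.

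Genes were named by a rule: the 8 regions with the most sites, the 8 promoter regions with the most sites, genes with 3 or more regions, up to 2 genes per list, up to 6 genes with a gain and a loss, the regions nearest the limits, and the densest and sparsest. Others are marked as named after their values were seen. Alternatives covered the 3 limits, regions with a control mean of 0, autosomes only, merging within 1000 bases, the width around gene ends, the assignment to genes, the choice of neighbours, the q threshold and its adjustment. A further gene list is not reported here.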

Additional observations from a re-analysis of the deposited data

How the results depend on the processing

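Alternatives changed the limits of the rule, the regions with a control mean of 0, the chromosomes, merging, the width around gene ends, the assignment to genes, the neighbours, and the q threshold or its adjustment. Over all of them 55 values were classed as unchanged and 28 as moved, and none changed sign. The limit was a value's interval or, lacking one, 1.5 times. Medians were held to a narrower limit than 1.5 times: a density of 12.5 against 13.6 was classed as moved. Of the 55, 10 come from a minimum of 3 sites, which let in no further region and so tests nothing. Counting overlapped genes only, 24 lists had a higher share of genes than all protein-coding genes, against 28. With at least 10 sites, 330 regions in 385 genes were left, with medians of 13 sites, 91.5 bases and 15.7 sites per 100 bases; 45.5% lay at a gene end, 41.2% inside genes and 13.3% outside, and 64.5% were called in the authors' deposited table. With the control under 10%, 501 regions in 529 genes were left, with a density of 12.5 and 25.7% called. With the knockout at 60% or above, 557 regions in 580 genes were left, with a density of 16.2, a length of 47 bases, 47.6% called and a neighbour median of 19.9 points. Without control means of 0 the density was 14.7 and 48.0% were called. A width of 500 bases put 23.6% at a gene end, 54.3% inside and 22.1% outside, and 2000 bases put 46.7%, 36.5% and 16.8% there. With q under 0.05, 48.5% were called. By construction, fewer regions pass a stricter limit, a looser q calls more regions, and a wider gene end holds more of them. No region with a control mean of 0 was called, so leaving these out raises the share called by construction. The cause of the other shifts was not tested.

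No paired analysis was possible because the table holds 1 mean per group and no values of single libraries; for the same reason no replicate was left out. Depth per site is unknown, and so is the precision of each level.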
